A study of Mus musculus with 6 samples.

Results

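A group of serpins (serine protease inhibitors) that the liver secretes into plasma were followed in circulating red cells of mice. They are the antitrypsin copies Serpina1a, Serpina1b, Serpina1c, Serpina1d and Serpina1e, together with Serpina3k and Serpinc1. These 7 genes were taken by symbol from 27179 genes counted, and they were chosen with the difference between genotypes in these data already known. The mutant group carried 1 copy of the C587R allele of Nxf1 (Nxf1+/C587R), and the control group was Nxf1+/+. The protein NXF1 carries messenger RNA out of the nucleus. All mice were males on a BalB/c background, the controls were littermates, and no age was given for them. Each library held polyadenylated RNA of red cells pelleted through Ficoll from cardiac blood of 1 mouse. There were 3 mutant and 3 wild-type libraries, in 3 batches with a mutant and a wild-type mouse apiece.

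Serpins inhibit proteases by offering an exposed reactive centre loop as bait, and the protease that cuts it is trapped in a covalent complex. Hepatocytes make most of the antitrypsin, antithrombin and contrapsin of plasma. Antitrypsin restrains neutrophil elastase, antithrombin restrains thrombin and factor Xa with heparin as cofactor, and contrapsin binds tissue kallikrein and trypsin-like enzymes. Mice carry several antitrypsin genes in place of the single human gene, their number is known to differ between strains, and the copies are known to differ most in the loop that meets the protease.

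The 5 antitrypsin copies lie in 1 cluster on chromosome 12 (mm10, RefSeq positions). Serpina1b spans 103728156 to 103738189, Serpina1d 103763587 to 103773633, Serpina1a 103853295 to 103863619, Serpina1c 103894926 to 103904950 and Serpina1e 103946931 to 103956897. Serpina3k follows on the same chromosome at 104338486 to 104345739, and Serpinc1 lies apart on chromosome 1 at 160978583 to 161002543. The coding sequences of the 5 copies in the GENCODE reference all had 1239 bases, so they were compared base by base without gaps. Identity ran from 96.3% (Serpina1b or Serpina1d with Serpina1e, 46 differences) to 98.5% (Serpina1a with Serpina1c, 19 differences). In all, 86 of the 1239 positions differed among the copies. The 60 bases with the most differences were coding bases 1101 to 1160, with 18 variable positions where the median over all 60-base stretches was 4. These stretches are shown because they hold the densest of the bases by which reads can be assigned to 1 copy, and capitals mark the positions that differ among the 5.
Serpina1a: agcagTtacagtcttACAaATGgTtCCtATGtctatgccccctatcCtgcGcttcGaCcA
Serpina1b: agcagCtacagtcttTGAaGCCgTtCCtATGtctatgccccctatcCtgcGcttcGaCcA
Serpina1c: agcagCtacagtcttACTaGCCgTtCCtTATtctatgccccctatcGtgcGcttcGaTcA
Serpina1d: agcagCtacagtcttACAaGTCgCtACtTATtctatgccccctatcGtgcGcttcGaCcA
Serpina1e: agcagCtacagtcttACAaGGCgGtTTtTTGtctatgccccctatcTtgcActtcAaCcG
Serpina1e stood furthest from the others in this stretch, with 10 to 12 differences from each. Serpina1c and Serpina1d were the closest pair there, with 5 differences.

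A read that covers none of the 86 variable positions cannot be assigned to 1 copy. Of all 50-base windows of the coding sequence, 16.1% of those of Serpina1a and 18.7% of those of Serpina1c were found in no other gene's transcripts. The shares were 52.9% for Serpina1b, 45.7% for Serpina1d and 61.0% for Serpina1e. Serpina3k had 78.0%, its shared windows being mostly those of its neighbour Serpina3m, and Serpinc1 had 100%. With windows of 100 bases Serpina1a and Serpina1c rose to 35.7% and 26.1%, and Serpina1e to 80.9%. No source used here gave the read length or the handling of reads with several matches, and the reference is the C57BL/6J genome while the mice were BalB/c. Counts of single antitrypsin copies are therefore uncertain, and their sum less so.

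**Figure D1:**
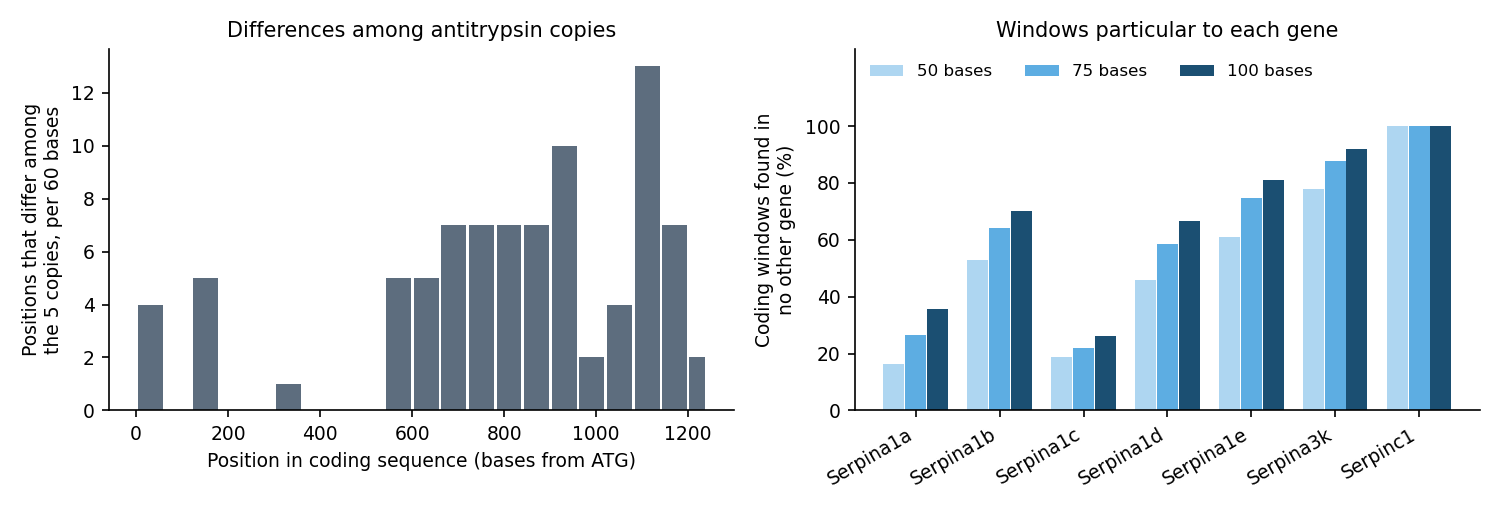
Left, positions that differ among the 5 antitrypsin copies in successive stretches of 60 coding bases (the last is shorter), against distance from the ATG in bases. Right, percent of coding windows of 50, 75 and 100 bases found in no other gene's transcripts, where Serpina1a and Serpina1c have the lowest bars and Serpinc1 reaches 100%.

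The 5 copies also share their start region. RefSeq promoters (GRCm38.p6, 250 bases before to 50 after the annotated start) were found for 6 of the 7 genes. All 5 antitrypsin promoters held the 12-base sequence GTTAATATTCAC, which lies in the region of the human antitrypsin promoter known to bind the liver factor HNF1. The sequence was taken from these promoters after they had been read. Of 32851 promoters searched on both strands of the 250 upstream bases, 5 held it (0.0152%), and these were the 5 antitrypsin copies. The shorter GTTAAT, which the 12 bases contain, was in 6.43% of promoters, and Serpinc1 had it on neither strand. The upstream bases around the 12-base match are shown because all copies keep 55 bases unbroken across it. Capitals mark the match, and all 5 read on the minus strand.
Serpina1a, chr12:103863620-103863685: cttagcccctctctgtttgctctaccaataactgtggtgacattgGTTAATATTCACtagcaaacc
Serpina1b, chr12:103738190-103738260: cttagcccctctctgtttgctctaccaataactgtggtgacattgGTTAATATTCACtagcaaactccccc
Serpina1c, chr12:103904951-103905022: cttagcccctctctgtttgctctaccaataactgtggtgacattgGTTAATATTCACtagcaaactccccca
Serpina1d, chr12:103773634-103773694: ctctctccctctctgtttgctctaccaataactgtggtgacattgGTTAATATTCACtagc
Serpina1e, chr12:103956919-103957020: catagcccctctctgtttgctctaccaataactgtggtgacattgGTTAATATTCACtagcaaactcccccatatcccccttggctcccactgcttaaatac
The match began 16 to 27 bases before the annotated start in Serpina1a, Serpina1b, Serpina1c and Serpina1d, and 78 bases before it in Serpina1e. A match describes these letters and is not a measured binding site.

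Library totals ran from 14636739 to 15790336 counts, and globin transcripts took 88.1% to 89.3% of them. The labelled cell type was checked against its markers, and the 12 erythroid markers that matched a gene were all seen, with 13488512 to 14479093 counts per library. A count of 0 in 1 library allowed up to 3 counts, or 0.190 to 0.205 CPM of unscaled total counts. The libraries were scaled with TMM factors, which set the bulk of genes equal, and CPM elsewhere is taken over the scaled totals. With totals left unscaled, log2 fold changes of all genes tested had a median of −0.53 in place of −0.06. Exocrine pancreas markers stood out in wild-type library 1, with 380 counts, and had 0 to 2 counts in each other library.

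The 7 serpins together had 355, 606 and 375 counts in mutant libraries 1, 2 and 3, and 1, 0 and 1 in wild-type libraries 1, 2 and 3. Every mutant library was above every wild-type library, and mutant library 2 was the highest. The mutant mean was 35.9 ± 13.7 CPM, and the wild-type mean was 0.0347 ± 0.0300 (SD, n = 3 each). Within batches 1, 2 and 3 the mutant was higher by 32.5, 51.0 and 24.2 CPM. With 1336 counts against 2, the TMM-scaled ratio was 956 (95% exact binomial interval 264 to 7905), and with unscaled totals it was 682 (188 to 5637). These intervals cover counting error only. Of the 7 genes, 6 passed the filter on low counts, and edgeR's quasi-likelihood test called all 6 higher at an adjusted p under 0.05. In the same fit 7.05% of 2823 genes tested were called, 5.99% higher and 1.06% lower. The genes were chosen on this contrast and the filter was passed through the mutants alone, so the count describes them and supports nothing. The same 6 were called under every alternative but a filter on a mean count of at least 50, which left Serpina1b and Serpina1c to test and called both. The share of all genes called higher was 6.2% with RLE scaling, 4.07% with unscaled totals, 5.81% with TMM without globins, 2.33% with no filter, 9.91% with the mean count of 50, 4.14% with DESeq2, 5.84% with limma-voom and 6.87% with batch in the model. Without mutant library 1, 2 or 3 it was 4.27%, 4.12% or 7.48%, and without wild-type library 1, 2 or 3 it was 6.64%, 5.87% or 5.31%.

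Serpina1b had 104, 174 and 103 counts in the mutants and 0 in each wild-type library. The groups did not overlap, and mutant library 2 stood above the other two. The level was 10.3 ± 4.04 CPM in the mutants (SD, n = 3). Against a floor of 3 counts over the wild-type group, it was at least 182-fold higher with TMM-scaled totals and at least 130-fold with unscaled totals.

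Serpina1c had 92, 174 and 109 counts in the mutants and again 0 in each wild-type library. Its level of 10.03 ± 4.04 CPM (SD, n = 3) differed from that of Serpina1b by less than the spread between mutant libraries. It was at least 179-fold higher with TMM scaling and at least 128-fold without. Of the copies, Serpina1a and Serpina1c shared the most sequence, so some of their reads may be exchanged or lost.

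Serpina1a had 60, 74 and 41 counts in the mutants against 0, 0 and 1 in wild type. It was 1 of 2 members seen at all in a wild-type library. The mutant level was 4.79 ± 1.89 CPM against 0.0172 ± 0.0297 (SD, n = 3 each), and the TMM-scaled count ratio was 251 (95% exact binomial interval 44.4 to 9951).

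Serpina1d had 26, 35 and 35 counts in the mutants and 0 in each wild-type library. Its spread among the mutants, 2.53 ± 0.365 CPM (SD, n = 3), was the narrowest relative to its mean of the 7 genes. It was at least 45.8-fold higher with TMM scaling and at least 32.7-fold without.

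Serpina1e, the copy with the largest share of windows of its own, had 0, 7 and 0 counts in the mutants and 0 in each wild-type library. All of its counts came from mutant library 2, and it did not pass the filter. Without the filter its difference was not called (edgeR adjusted p = 0.149). At this depth a level of up to 3 counts in mutant libraries 1 and 3 could not have been told from 0.

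Serpina3k, the mouse contrapsin, had 49, 102 and 64 counts in the mutants and 0 in each wild-type library. Mutant library 2 was again the highest and the groups did not overlap. Its level was 5.73 ± 2.47 CPM (SD, n = 3), at least 103-fold higher with TMM scaling and at least 73.2-fold without.

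Serpinc1, antithrombin, had 24, 40 and 23 counts in the mutants against 1, 0 and 0 in wild type. No 50-base window of its 1395 coding bases was found in another gene's transcripts. The rest of its deposited length of 2162 bases was not checked. Its level was 2.35 ± 0.948 CPM against 0.0175 ± 0.0303 (SD, n = 3 each), a TMM-scaled count ratio of 125 (95% exact binomial interval 21.8 to 4975).

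**Figure D2:**
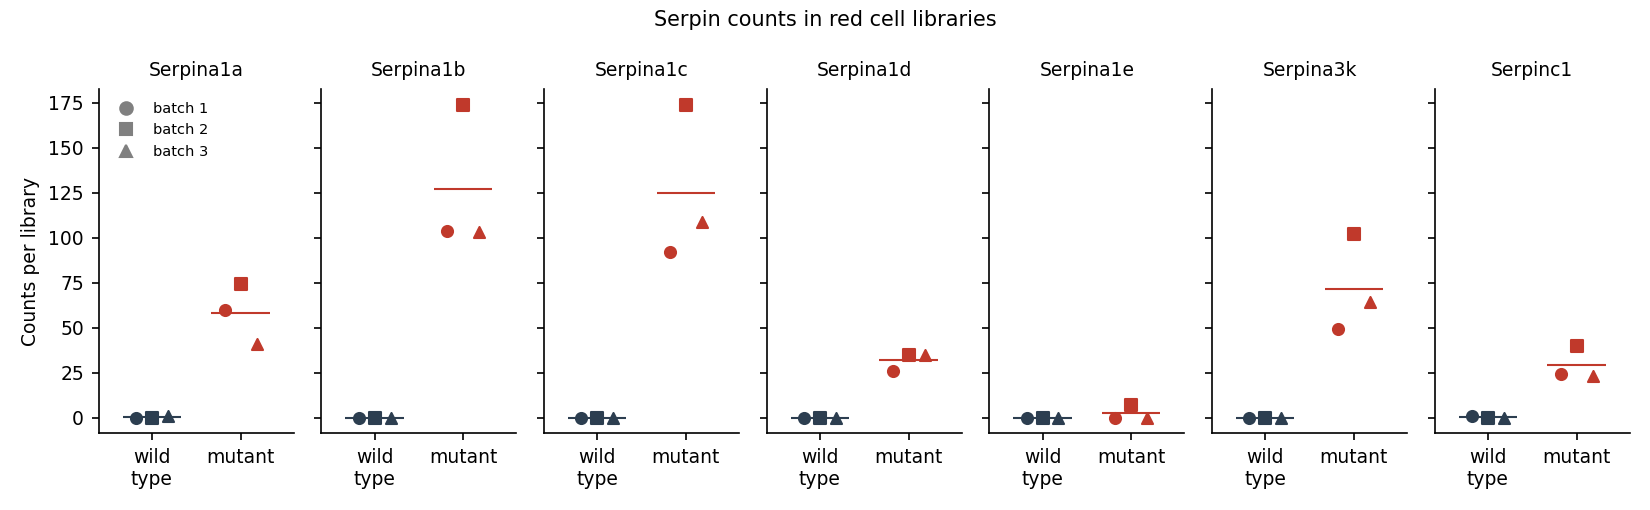
Counts per library (vertical axis, linear, from 0) of the 7 serpins in 3 wild-type and 3 mutant libraries; marker shapes give the batch and bars the group mean. Wild-type libraries hold 0 or 1 count of each gene, and mutant library 2 (squares) is the highest or equal highest for each.

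Per kilobase of the length deposited with the counts (1425 bases for Serpina1b, far shorter than its span on the chromosome), the order of levels in the mutants was Serpina1b (7.21 ± 2.84 CPM per kb), Serpina1c (7.04 ± 2.84), Serpina3k (3.47 ± 1.50), Serpina1a (2.47 ± 0.975), Serpina1d (1.75 ± 0.253), Serpinc1 (1.09 ± 0.439) and Serpina1e (0.143 ± 0.247), each with SD and n = 3. Serpina1b and Serpina1c took the first and second place per kilobase in every mutant library, in either order. Serpinc1 was sixth and Serpina1e last in all 3. The places between, held by Serpina3k, Serpina1a and Serpina1d, changed from library to library. Shared sequence lowers the countable length of some copies, so this order holds for counts as deposited.

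The makeup of the antitrypsin counts could be read in the 3 mutant mice. Serpina1b took 36.9% (95% Wilson interval 31.5 to 42.7), 37.5% (33.2 to 42.0) and 35.8% (30.4 to 41.5) of the antitrypsin counts of mutant libraries 1, 2 and 3. Serpina1c took 32.6% (27.4 to 38.3), 37.5% (33.2 to 42.0) and 37.8% (32.4 to 43.6). Intervals of the 3 libraries overlapped for both. Serpina1a took 21.3% (16.9 to 26.4), 15.9% (12.9 to 19.6) and 14.2% (10.7 to 18.7), highest in mutant library 1, with overlapping intervals. Serpina1d took 9.22% (6.37 to 13.2), 7.54% (5.47 to 10.3) and 12.2% (8.87 to 16.4). Serpina1e took 1.51% (0.733 to 3.08) in mutant library 2. Its 0 counts allowed up to 1.06% in library 1 and 1.04% in library 3, and both limits lie inside the interval of library 2.

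**Figure D3:**
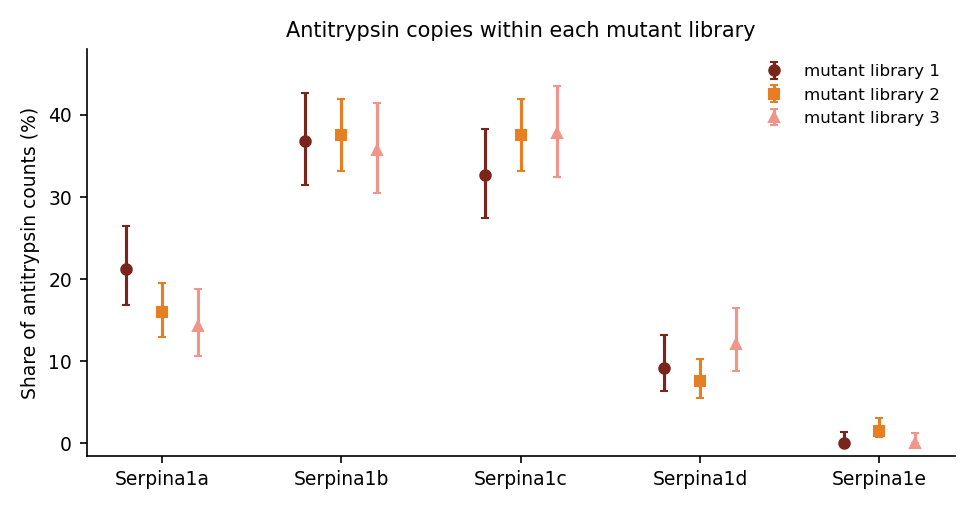
Share of antitrypsin counts (percent, vertical axis) that each of the 5 copies took in each mutant library, with 95% Wilson intervals for counting error. Serpina1b and Serpina1c each take 32.6% to 37.8%, and the intervals of the 3 libraries overlap for every copy.

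Other transcripts known from hepatocytes were also higher in the mutants. The 24 hepatocyte markers, none of them a member, had 1710, 4063 and 2191 counts in the mutants against 113, 20 and 14 in wild type. Of these markers, 14 had 0 wild-type counts and 21 were tested, of which 17 were called higher and 0 lower (edgeR, adjusted p under 0.05, with 20 higher and 0 lower at an unadjusted p under 0.05). In the same fit 5.99% of 2823 genes tested were called higher. Tested markers with 0 wild-type counts passed the filter through the mutants alone, so the counts describe the list. Alb, serum albumin, had 490, 1136 and 800 counts in the mutants against 0, 1 and 0 in wild type. Trf, transferrin, had 189, 427 and 242 against 2, 18 and 12, and Ttr, transthyretin, 85, 273 and 133 against 90, 0 and 0. Ass1, a urea cycle enzyme named after its values were seen, had 1 count in all. In bulk RNA, more cells of a type and more RNA per cell cannot be told apart, and the part of liver RNA or cells in the serpin difference was not tested.

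The serpins were also set against albumin. The 5 antitrypsin copies had 57.6, 40.8 and 36.0 counts per 100 Alb counts in mutant libraries 1, 2 and 3. Mutant library 1, with the fewest albumin counts, had the highest ratio. Against the summed hepatocyte markers the antitrypsin figures were 16.5, 11.4 and 13.1 counts per 100. Any shared antitrypsin reads lost in counting would lower both sets of antitrypsin figures. Serpina3k was steadier, at 10, 8.98 and 8 per 100 Alb counts, and 2.87, 2.51 and 2.92 per 100 marker counts. Serpina1a varied most of the 6 members seen in all mutants, from 12.2 in library 1 to 6.51 and 5.13 per 100 Alb counts.

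To find the genes whose counts were spread over the 6 libraries most like those of the 7 serpins together, a distance was computed between the shares of CPM held by each library. It is 0 for the same spread and 1 for no overlap. The serpin sum had 30.2%, 47.3% and 22.5% in mutant libraries 1, 2 and 3. Among 3232 genes with at least 50 counts, those near the sum outside the members included Apoa1 (0.00205), Vtn (0.00701), Apoh (0.00936), Apoc1 (0.0148) and F2 (0.0191). Apoa1, Apoh and Apoc1 encode apolipoproteins, Vtn vitronectin and F2 prothrombin. F2 encodes the protease that antithrombin inhibits, and the mutants held 22, 38 and 21 counts of it beside 24, 40 and 23 of Serpinc1. Within the family, Serpina1b (0.00972) and Serpinc1 (0.0159) lay nearest to the sum, and Serpina1a (0.0826) and Serpina1d (0.0857) furthest. The members make up the sum, so their closeness to it is partly built in, unlike that of outside genes. The median distance of all genes compared was 0.518. Of them 51 genes with a symbol outside the members lay within 0.1, and 13 of 21 hepatocyte markers compared did. All genes share these libraries and their scaling, so the distances are a description.

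**Figure D4:**
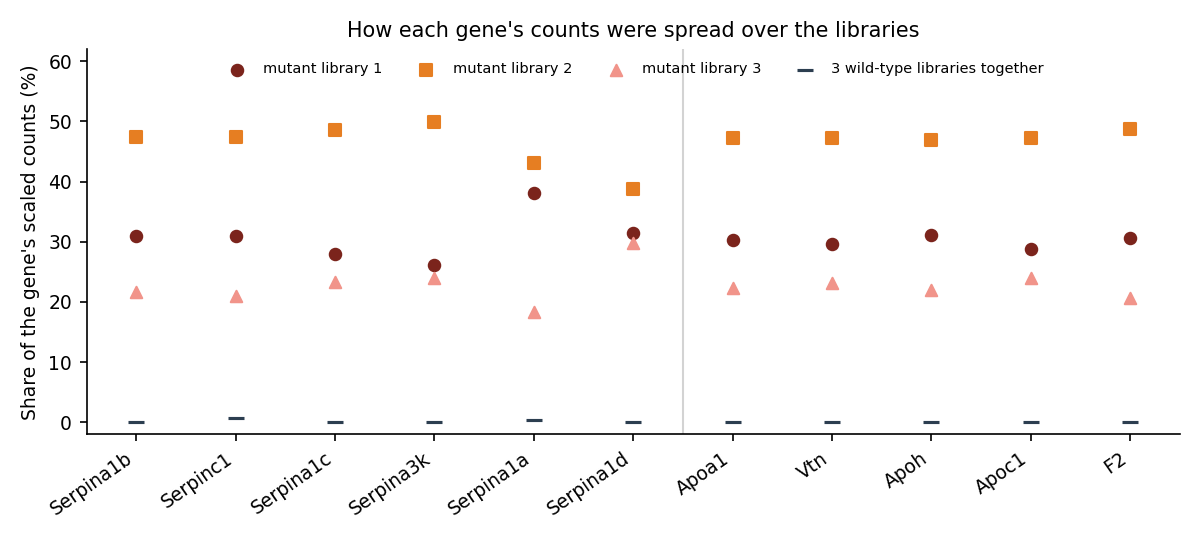
Share of each gene's CPM (percent, vertical axis) held by mutant libraries 1, 2 and 3 and by the 3 wild-type libraries together, for the 6 members with at least 50 counts (left of the line) and 5 near genes outside the members. Mutant library 2 holds 38.8% to 49.9% throughout, and Serpina1a and Serpina1d depart most from the common spread.

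Other plasma serpins were present at lower counts. The list of 24 had 22 members seen, with 85, 159 and 99 counts in the mutants against 30, 3 and 7 in wild type. Only Serpina3m and Serpinf2 passed the filter, and both were called higher, beside 5.99% of all genes tested. Both passed it through the mutants alone, so their calls describe the list. Serpina3m, a neighbour of Serpina3k with which it shares sequence, had 13, 20 and 13 counts against 0 in each wild-type library (at least 22.0-fold, edgeR adjusted p = 3.05e-05). Serpinf2, the plasmin inhibitor alpha-2-antiplasmin, had 10, 24 and 18 against 1, 0 and 0 (adjusted p = 1.90e-05). Without mutant library 1, or without any 1 wild-type library, 4 of 4 tested members were called higher, beside 4.27% to 6.64% of all genes tested. DESeq2, which tested 11, called 7 higher, beside 4.14% of all genes it tested.

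A pair of other serpins was seen in wild type. Named after their values were seen, Serpina10, the inhibitor of factor Xa that acts with protein Z, had 4, 1 and 5 counts in the mutants against 13, 0 and 0 in wild type. On the TMM scale its ratio was 1.10 (95% exact binomial interval 0.432 to 2.72), so no direction is given. Serpini1, neuroserpin, had 0 in each mutant library and 7, 2 and 0 in wild type. For Serpina10 all wild-type counts came from wild-type library 1, the library with the pancreas markers. Whether those transcripts have a part in it was not tested.

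Protease inhibitors of other families were also listed. Of 26 genes listed 22 were seen and 11 tested. Among the tested genes 8 were higher, 0 lower and 3 not called, beside 5.99% higher and 1.06% lower of all 2823 genes tested. Of the 11, 7 had 0 counts in every wild-type library and passed the filter through the mutants alone. Ambp, with 2 wild-type counts, did so too, and the counts describe the list. The median fitted log2 fold change was 7.44, which depends on the prior count, and 5.29 with those 7 genes at their bounds, beside −0.06 over all genes. Ahsg (fetuin-A), a hepatocyte marker as well, had 88, 179 and 91 counts in the mutants and 0 in each wild-type library, at least 171-fold higher (edgeR adjusted p = 4.61e-05). Pzp and Mug1, which belong to the alpha-2-macroglobulin family of bait inhibitors, had 51, 114 and 57 and 48, 81 and 37 against 0 in each wild-type library (adjusted p = 5.13e-05 and 3.02e-05). Ambp, Kng1 and Itih4, precursors of bikunin, kininogen and an inter-alpha-inhibitor heavy chain, were also higher (adjusted p = 6.55e-07, 1.23e-06 and 1.35e-06). The 3 genes not called are known from many cell types and were seen in every library. They were Cst3 (cystatin C; 18, 15 and 16 against 39, 18 and 28), Slpi (33, 21 and 46 against 35, 29 and 22) and Timp2 (10, 3 and 17 against 15, 8 and 13), named after their values were seen.

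The coagulation list held targets and partners of antithrombin. Of 27 genes 26 were seen and 9 tested. Among the tested genes 5 were higher, 0 lower and 4 not called, beside 5.99% higher and 1.06% lower of all 2823 genes tested. Of the 9, 4 had 0 counts in every wild-type library and passed the filter through the mutants alone. Fgb, with 1 wild-type count, did so too. The median was 6.36 on the log2 scale, and 5.27 with those 4 at their bounds. The 5 are made by hepatocytes. Fga, Fgg and Fgb, the fibrinogen chains, had 43, 81 and 42, then 25, 65 and 35, then 28, 34 and 18 counts in the mutants. In wild type Fga and Fgg had 0 in each library, and Fgb had 0, 1 and 0. Plg, plasminogen, had 23, 71 and 42 and F2 22, 38 and 21, both with 0 in each wild-type library. All 5 had edgeR adjusted p between 2.95e-06 and 7.04e-05. Whether the cell of origin had a part in which genes of this list were called was not tested. Named after their values were seen, the 4 not called were Vwf (16, 3 and 13 against 11, 11 and 25), F13a1 (13, 8 and 11 against 9, 15 and 12), F5 (22, 25 and 22 against 17, 15 and 26) and Plaur (5, 13 and 16 against 28, 12 and 12).

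A further list held proteases of neutrophils, mast cells, lymphocytes and lysosomes, tissue kallikrein and the intracellular serpins. This list had 2419, 2443 and 3374 counts in the mutants against 2311, 3187 and 3115 in wild type, most of them from Ctsb, the lysosomal cathepsin B. Elane, the neutrophil elastase, had 0 counts in all 6 libraries. Klk1, tissue kallikrein, named after its values were seen, had 0 in each mutant library and 3, 0 and 0 in wild type. Of 26 genes 23 were seen and 8 tested. Of the 8, 0 were higher, 1 lower and 7 not called, beside 5.99% higher and 1.06% lower of all 2823 genes tested. The median was 0.83 on the log2 scale, and 1 gene was higher at an unadjusted p under 0.05. The lower gene was Gzma, a granzyme of T and NK cells, with 3, 7 and 4 counts in the mutants against 18, 27 and 43 in wild type (log2 −2.10, SE 0.45, edgeR adjusted p = 0.00428). Its call was lost with DESeq2 (adjusted p = 0.0707) and without mutant library 3 (0.0617). The 10 T and NK cell markers, which include Gzma, summed to 23 to 42 counts per mutant library and 74 to 167 per wild-type library. Gzma and Tcf7, 2 of 3 tested, were called lower by edgeR, and DESeq2 called 0 of 10. The call of Tcf7 was also lost without mutant library 2 (adjusted p = 0.0580), mutant library 3 (0.0635) or wild-type library 3 (0.119).

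Mast cell proteases were high in 1 wild-type library. Named after their values were seen, Cpa3 had 49, 25 and 60 counts in the mutants against 0, 89 and 2 in wild type. Tpsb2, Mcpt4 and Cma1 did likewise, with wild-type counts of 0, 89 and 2, of 0, 55 and 5, and of 1, 78 and 11. None was called with all libraries (edgeR adjusted p 0.785 to 0.879). Without wild-type library 2 all 4 were called higher (log2 3.35 to 5.88, edgeR adjusted p 1.70e-05 to 0.00172), beside 5.87% of 3273 genes tested. Leaving out that library takes away most of their wild-type counts, so these calls follow from the choice of library and describe no more than that.

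**Figure D5:**
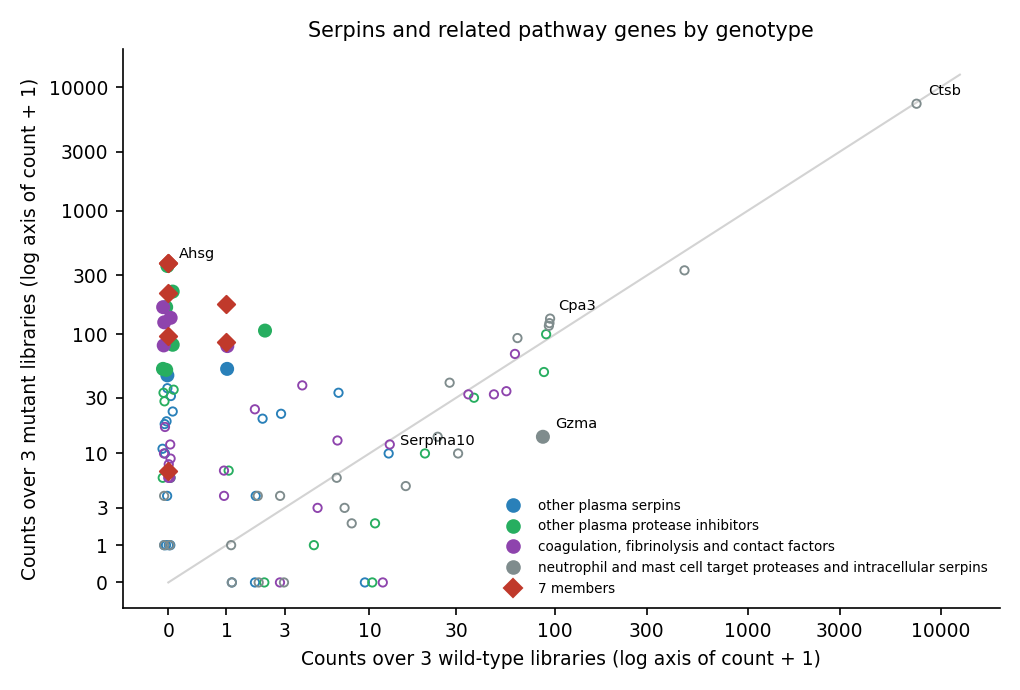
Counts summed over the 3 mutant libraries against the 3 wild-type libraries for each gene of the 4 lists and the 7 serpins (log axes of count + 1; grey line, equal counts; filled circles, called by edgeR; diamonds, the 7 serpins, called or not; small sideways shifts separate points). The 7 serpins lie on the left edge at 0 or 1 wild-type counts, as do Ahsg and Pzp, while Ctsb and Cpa3 lie near the line.

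Markers of other cells of liver and blood were summed in the same way. Kupffer cell and macrophage markers had 36 to 78 counts in the mutants and 35 to 71 in wild type, with C1qb and Marco at 0 throughout, and endothelial markers 52 to 80 and 33 to 70. Named after their values were seen, Clec4f, a Kupffer cell marker, had 0, 3 and 4 counts in the mutants, and Clec4g and Stab2, of liver sinusoids, had 6, 8 and 6 and 1, 10 and 4. All 3 had 0 in each wild-type library. Neutrophil and monocyte markers had 1083 to 2042 counts in the mutants and 1734 to 2222 in wild type, with S100a9, Csf3r and S100a8 the most abundant. B cell markers (Ighm and Cd74 leading) had 135 to 227 and 254 to 646, and platelet markers (Itga2b, Ppbp and Pf4 leading) had 77 to 196 and 160 to 307. In these 5 lists edgeR called none of 18 genes tested, with 2 higher and 2 lower at an unadjusted p under 0.05. DESeq2 called Clec4g and Lyz2, a lysozyme of myeloid cells, both higher. Other settings of edgeR called 0 to 4, most with no filter. Cd74, of antigen presentation, was called lower with a mean count of at least 50 (adjusted p = 0.0421), with unscaled totals (0.00613), with batch in the model (0.0158) and without wild-type library 2 (0.0352). The part of any of these cells in the serpin difference was not tested.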

How the data were processed

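Each library has 1 file of unnormalized whole-number counts by gene, deposited by the authors, per the file headers. The submitters' processing notes name CASAVA 1.8.2, Subread, featureCounts and the mm10 build. Annotation, strand setting and treatment of multi-mapped reads are not given in the sources used here. Symbols and positions came from RefSeq (25275 genes) and GENCODE (18). No symbol was found for 1886 genes, which stayed in the tests.

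Genotypes were compared with edgeR 4.0.16 in R 4.3.3 (robust quasi-likelihood F test after TMM scaling and filterByExpr, with genotype as the only term, Benjamini-Hochberg adjustment over all genes tested). Standard errors were the log2 fold change over the square root of F. Fold bounds set 0 wild-type counts to 3 over the group. Scripts were tested on simulated counts.

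The members and lists were chosen with earlier results of these data known. Named genes were the 7 members, called members of each pathway list (up to 6 by counts), 3 markers per list by counts and the 6 nearest genes, of which some are not reported here. Others are said to be named after their values were seen. Depth was 14636739 to 15790336 counts per library. Each library is 1 mouse. The labels give a batch number, which pairs a mutant with a wild-type library, although their deviations from the group means did not correlate positively (−0.116, −0.0855 and −0.0439). Alternatives were RLE scaling, unscaled totals, TMM without globins, other filters, DESeq2 1.42.0, limma-voom (limma 3.58.1), batch as a term and leaving out each library. Wilson and exact intervals used scipy 1.17.1.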

Additional observations from a re-analysis of the deposited data

How the results depend on the processing

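The 6 serpins called higher were called under every scaling, with no filter, with DESeq2, with limma-voom and without any 1 library. With a mean count of at least 50 only Serpina1b and Serpina1c were left to test, and both of these 2 were called. With batch as a replicate block the same number of serpins, 6, was called, 254 genes were called in all, and the block changed no count of a pathway list. In the 5 marker lists without a call it called 3 genes. Over all genes 199 were called (169 higher, 30 lower). The number was 360 with unscaled totals (115 higher, 245 lower), 464 with no filter and 115 with a mean count of at least 50, and 152 to 278 without 1 library. Other plasma serpins had 2 called, 12 with no filter, 7 with DESeq2 and 2 to 4 without 1 library. Other inhibitors had 8, and 1 of 1 tested at the mean count of 50. Coagulation factors had 5, and 10 with no filter. The protease list had 1, then 0 with the mean count of 50 or DESeq2, and 0 to 5 without 1 library, 0 without mutant library 3, 2 without wild-type library 1 and 5 without wild-type library 2. At an unadjusted p under 0.05 DESeq2 had 1 higher and 1 lower, edgeR 1 higher and 1 lower without mutant library 3, and edgeR 1 higher at the mean count of 50. More genes passed the filter when a library was left out. Repeats were counted for 25 genes, namely the members tested, the named genes called in the pathway lists and the nearest genes. Of 329 repeats, 327 kept direction and call and 2 lost the call, both of Gzma. Genes named only as markers or after their values were seen are not in this count. Among those, the calls of Tcf7, Cd74 and the mast cell proteases changed with the setting, as given above. At a mean count of 50 the other plasma serpins and the coagulation list had no gene left to test. With 3 against 3, an exact permutation p cannot be below 0.1.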
